A study of Mus musculus with 35 samples.

Results

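The 6 genes described here, Mcm3, Mcm4, Mcm5, Mcm10, Ccne1 and E2f1, act where a cell commits to copying its DNA. They were taken by symbol from the gene names in the authors' table of the ganglion arrays, in which 7804 genes are named. Each of the 6 was read by 1 probe, and the same probe was followed on all 35 arrays. Mcm3, Mcm4 and Mcm5 encode subunits of the MCM2-7 ring, the replicative helicase that is loaded onto replication origins during G1, a step called licensing. Mcm10 encodes a replication factor outside that ring which is needed when the loaded helicase starts to unwind. Ccne1 encodes cyclin E1, which activates the kinase CDK2 at the passage from G1 into S phase. E2f1 encodes a transcription factor that the retinoblastoma protein holds in check, and genes for MCM subunits and cyclin E are among the known targets of E2F factors. In childhood neuroblastoma, amplification of MYCN marks aggressive disease.

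All animals were TH-MYCN mice bred to homozygosity, in which a human MYCN transgene is driven by the tyrosine hydroxylase promoter. There was no group without the transgene, and the labels name no strain. A group of 24 tumors came from mice followed by ultrasound from weaning at day 28 and killed when the tumor reached a size class, with 6 tumors in each class. Small tumors weighed 0.05 to 0.1 g, medium tumors 0.24 to 0.46 g, large tumors 0.76 to 1.3 g and very large tumors 1.6 to 3 g. The mice with small tumors were 28 to 42 days old and the others 35 to 46 days old. The other 11 arrays held sympathetic ganglia with foci of hyperplastic neuroblasts from the day of birth (day 0, n = 5), day 7 (n = 2) and day 14 (n = 2), together with small tumors (n = 2). By their specimen names, these last 2 tumors were also among the 6 small tumors of the size series. Over the shared probes they had a rank correlation of 0.848 and 0.849 with their namesakes, where 0 and 2 of the 23 other arrays of the size series were higher, so the arrays themselves do not single out the second pair. RNA came from frozen sections of whole tissue and was hybridised in 1 colour. Nothing in the labels says whether ganglia of several animals were pooled.

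The levels below are log2 values of normalized intensity, and a difference of 1 is a doubling. Each set was normalized on its own, so a level of 1 set was not compared with a level of the other. The median unnormalized intensity of an array ran from 557.79 to 1292.16 among the 24 tumors and from 655.66 to 1513.66 in the ganglion set, and the number of arrays limits the precision. No member was at the lower limit set for the values on any array. The labelled tissue was checked by 1 marker, Th, tyrosine hydroxylase, which was at 20.82 to 21.92 in the 9 ganglia and at 18.89 to 18.91 in the tumors beside them. In the size series Th was at 17.37 to 18.02 in small and 16.63 to 17.30 in medium tumors. It was at 16.47 to 18.81 in large and 17.40 to 18.68 in very large tumors. Among the day 0 ganglia the rank correlation of arrays ran from 0.932 to 0.984. The specimen numbers fall into 2 runs, and replicates 1 and 2 correlated with replicates 3 to 5 at 0.932 to 0.946, against 0.959 to 0.984 among replicates 3 to 5 and 0.947 between replicates 1 and 2. All p-values are from limma, two-sided and adjusted by the Benjamini-Hochberg method over every probe of the set, and a probe was called at an adjusted p under 0.05. The labels do not say that replicates came from separate animals, so the p-values measure the spread between these specimens.

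The first question was how the genes moved in the ganglia during the first weeks of life, while the hyperplastic foci are present. At day 7, Mcm4, Mcm5, Mcm10 and Ccne1 rose against day 0, by 0.85 to 2.34 on the log2 scale. That was 4 of 6 members, where 1.99% of the 12688 probes were called and 1.47% were called higher. By day 14 the 4 MCM genes were within 0.70 of day 0 and none of them was called, while Ccne1 and E2f1 rose against day 0. The small tumors of the same set were higher than day 0 ganglia for all 6 members. In whole tissue, fewer cells of a type and less RNA per cell cannot be told apart.

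**Figure D1:**
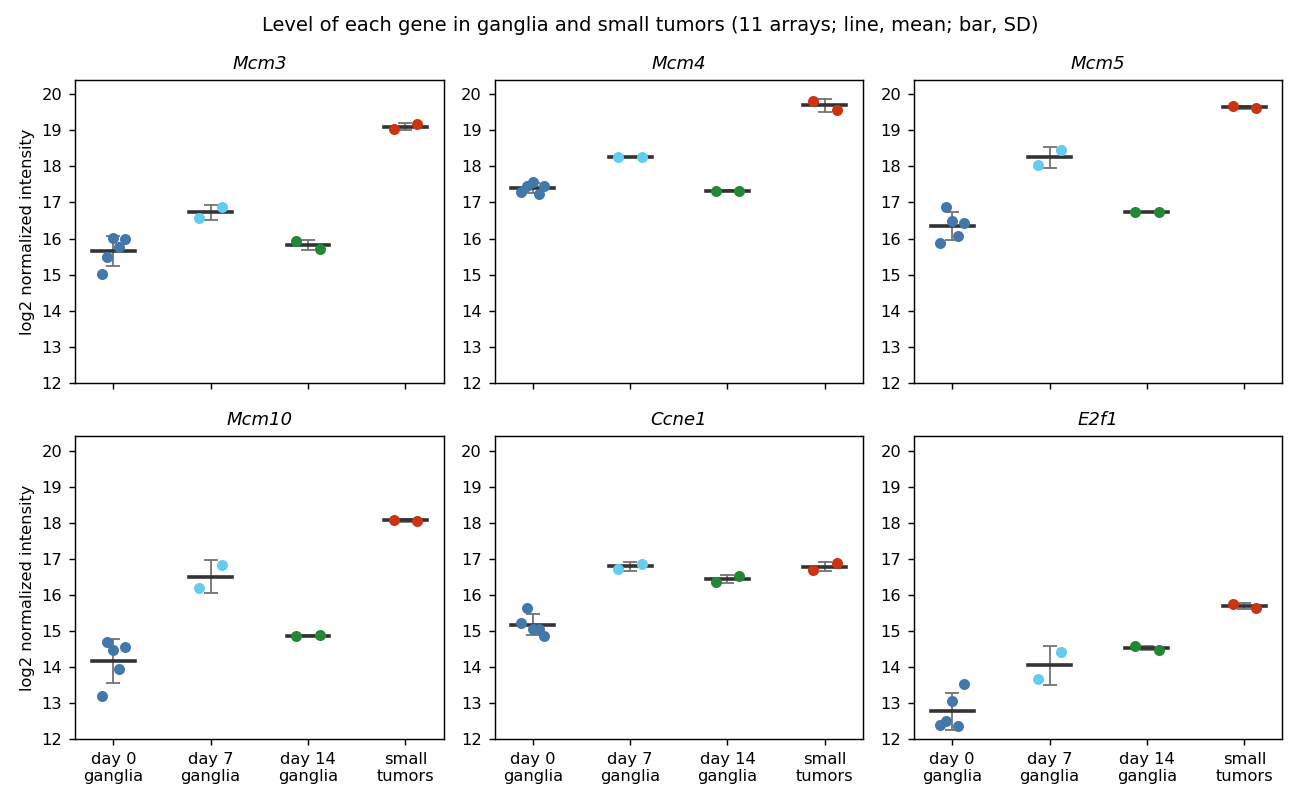
Log2 normalized intensity of the 6 genes on each of the 11 arrays of the ganglion set, by group on the horizontal axis. Points are arrays, the line is the mean and the bar the SD. In the small tumors every MCM gene and E2f1 sit above every ganglion, and Ccne1 sits in the same range as at day 7. The share of all probes above every ganglion was not counted.

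Among the ring subunits, Mcm5 moved the most between day 0 and day 7. Its level was 15.87, 16.87, 16.50, 16.07 and 16.42 in the day 0 ganglia, 18.05 and 18.46 at day 7, 16.73 and 16.73 at day 14, and 19.67 and 19.61 in the small tumors. Both day 7 arrays lay above all 5 day 0 arrays, and the day 14 arrays lay inside the day 0 range. Mcm5 rose by 1.91 at day 7 (SE 0.24, 3.75-fold, limma adjusted p = 0.00327) and fell again by 1.52 from day 7 to day 14 (SE 0.28, limma adjusted p = 0.0385). From day 0 to the small tumors the difference was 3.29 (SE 0.24, 9.80-fold, limma adjusted p = 6.4e-07).

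Mcm4, another ring subunit, followed the same course over a smaller range. It was at 17.29, 17.47, 17.58, 17.24 and 17.47 at day 0, at 18.26 and 18.27 at day 7, at 17.33 and 17.31 at day 14, and at 19.82 and 19.57 in the tumors. The day 7 arrays stood clear of day 0 and day 14, and those 2 stages overlapped. The rise at day 7 was 0.85 (SE 0.15, limma adjusted p = 0.0137) and Mcm4 fell by 0.95 from day 7 to day 14 (SE 0.18, limma adjusted p = 0.0385). The tumors were 2.28 above day 0 (SE 0.15, limma adjusted p = 2.8e-07).

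Mcm3 was at 15.03, 15.50, 16.03, 15.76 and 15.99 at day 0, at 16.57 and 16.88 at day 7, and at 15.92 and 15.72 at day 14. Its day 7 arrays were above every day 0 array, but the difference of 1.06 (SE 0.25, limma adjusted p = 0.0523) was not called. Without day 0 replicate 1, the lowest array, the difference was 0.90 with an adjusted p of 0.0191. Leaving out any other day 0 array gave no call. Over all fits without a single array, the difference ran from 0.90 to 1.22. The tumors, at 19.03 and 19.17, were far above every ganglion, by 3.44 against day 0 (SE 0.25, 10.8-fold, limma adjusted p = 6.9e-07).

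Mcm10 covered the widest range of the 6. It was at 13.19, 14.70, 14.47, 13.96 and 14.55 at day 0, at 16.18 and 16.84 at day 7, at 14.86 and 14.88 at day 14, and at 18.09 and 18.04 in the tumors. The 4 stages did not overlap, with day 14 just above the highest day 0 array. The share of all probes whose 4 stages do not overlap was not counted. Mcm10 rose by 2.34 at day 7 (SE 0.35, 5.05-fold, limma adjusted p = 0.00671). Its difference of -1.64 from day 7 to day 14 was not called (SE 0.42, limma adjusted p = 0.0993). The tumors were 3.89 above day 0 (SE 0.35, 14.8-fold, limma adjusted p = 3.6e-06) and 1.55 above day 7 (SE 0.42, limma adjusted p = 0.0133).

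Ccne1, the cyclin, was at 15.23, 15.64, 15.07, 15.07 and 14.86 at day 0, at 16.71 and 16.87 at day 7, at 16.36 and 16.52 at day 14, and at 16.69 and 16.88 in the tumors. Every later array was above all of day 0, and the day 7 and tumor values lay in the same range. Ccne1 rose by 1.61 at day 7 (SE 0.21, 3.06-fold, limma adjusted p = 0.00339). The difference between tumors and day 7 was 0.00 (95% interval -0.55 to 0.54, limma adjusted p = 0.998), and that between tumors and day 14 was 0.35 (95% interval -0.20 to 0.89, limma adjusted p = 0.302). The difference between day 14 and day 7 was -0.35 (limma adjusted p = 0.613).

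E2f1, the transcription factor, was at 12.41, 12.50, 13.05, 12.37 and 13.54 at day 0, at 13.67 and 14.43 at day 7, at 14.58 and 14.49 at day 14, and at 15.75 and 15.63 in the tumors. The groups did not overlap, but the highest day 7 array (14.43) lay just under the lowest day 14 array (14.49). The mean of each later stage was higher than the one before. The share of all probes whose 4 groups do not overlap was not counted. The difference at day 7 was 1.27 (SE 0.34, limma adjusted p = 0.0755) and was not called. Without day 0 replicate 5, the highest of that stage, it was 1.47 with an adjusted p of 0.0302. Leaving out any other day 0 array gave no call. Over all fits without a single array, the difference ran from 0.89 to 1.66. At day 14 E2f1 rose by 1.76 against day 0 (SE 0.34, 3.38-fold, limma adjusted p = 0.00733). The step from day 7 to day 14 was 0.48 (SE 0.40, limma adjusted p = 0.675). The tumors were 2.92 above day 0 (SE 0.34, 7.55-fold, limma adjusted p = 2.7e-05).

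Across the comparisons between stages, the members' counts stood as follows against the probes at large. All 6 day 7 levels lay wholly above day 0, as did 11.3% of probes. For the other separations between groups the share of all probes is not given here, except for tumors against day 0 below. At day 14, Ccne1, by 1.27 (SE 0.21, limma adjusted p = 0.00341), and E2f1 made 2 of 6 called, where 10.2% of probes were called and 5.56% were called higher. Between day 14 and day 7, Mcm4 and Mcm5 made 2 of 6, where 0.465% of probes were called and 0.268% were called lower. Whether Ccne1 and E2f1 differed from the MCM genes in this step was not tested. The 4 day 7 calls depended on single arrays, and a fit without a day 7 array has 1 array at that stage. Without day 7 replicate 2 none of the 4 calls was made, and few probes of any kind were called. The differences were then 0.85 for Mcm4, 1.70 for Mcm5, 2.01 for Mcm10 and 1.53 for Ccne1. Without day 7 replicate 1 only the call of Mcm4 was lost (0.86). The falls of Mcm4 and Mcm5 from day 7 to day 14 were not called when any 1 of the day 7, day 14 or tumor arrays or day 0 replicate 3 was left out (Mcm4 -0.94 to -0.96, Mcm5 -1.32 to -1.73), nor that of Mcm5 without day 0 replicate 5. With arrays centred on their medians they were -0.91 (adjusted p = 0.224) and -1.50 (0.0968), and the rise of Mcm4 at day 7 was 0.84 (0.11). Fits without a day 14 array have 1 array at that stage, and fewer probes of any kind were called in them. Without day 14 replicate 2 neither day 14 call was made, with Ccne1 at 1.19 and E2f1 at 1.80. Without day 14 replicate 1, E2f1 was at 1.71 and was not called.

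With day 0 replicates 3 to 5 alone as the day 0 group, or replicates 1 and 2 alone, 6 of 6 members were called at day 7 in each case, where 24.8% of probes were called with replicates 3 to 5 and 2.44% with replicates 1 and 2. The differences then ran from 0.80 for Mcm3 to 2.18 for Mcm10 against replicates 3 to 5, and from 0.88 for Mcm4 to 2.57 for Mcm10 against replicates 1 and 2. The day 14 call count was 2 in both cases, where 27.6% and 10.7% of probes were called.

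Small tumors differed from ganglia at a large share of all probes. Against day 0 ganglia, 6 of 6 members were called, where 37.3% of probes were called and 18.4% were called higher. All 6 lay wholly above day 0, as did 24.9% of probes. Against day 7, Mcm3, Mcm4, Mcm5, Mcm10 and E2f1 made 5 of 6, where 32.2% of probes were called and 15.4% were called higher. Against day 14 the same 5 genes were called, where 39.7% of probes were called and 19.9% were called higher. The differences from day 14 were 3.28 for Mcm3, 2.37 for Mcm4, 2.91 for Mcm5, 3.19 for Mcm10 and 1.16 for E2f1 (limma adjusted p = 0.0357 for E2f1). That call of E2f1 was lost on leaving out any 1 of the day 14 or tumor arrays, with differences of 1.10 to 1.21. Against day 7, Mcm10 was not called without tumor replicate 1 (1.53, adjusted p = 0.0755), tumor replicate 2 (1.58, 0.0673) or day 7 replicate 1 (1.23, 0.125), and E2f1 not without tumor replicate 1 (1.59, 0.0558) or day 7 replicate 1 (1.26, 0.0913). A test for any difference among the 4 groups called 6 of 6 members and 41.9% of probes.

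**Figure D2:**
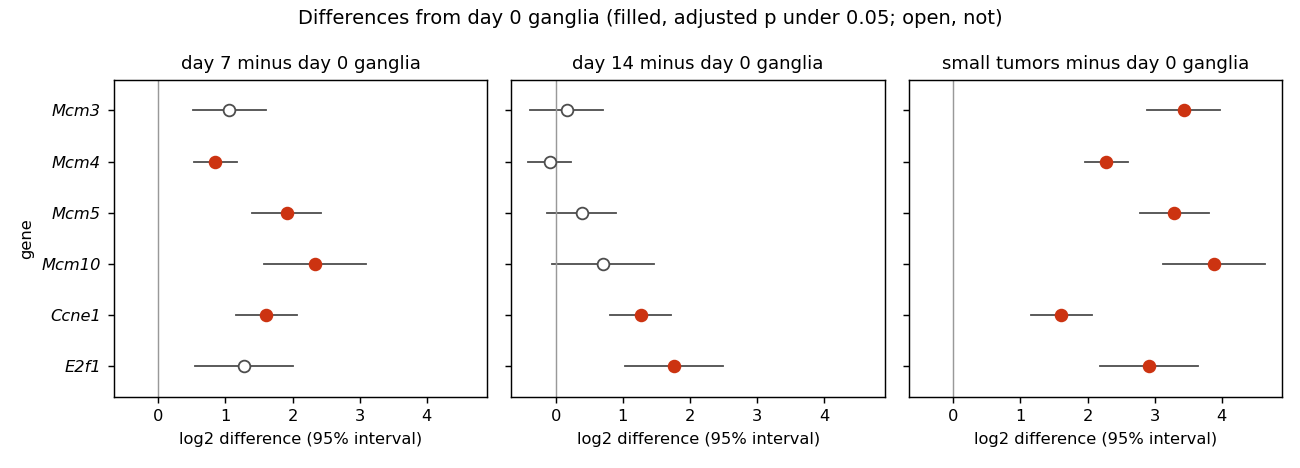
Log2 difference of each gene from day 0 ganglia, with its 95% interval on the horizontal axis, for day 7 ganglia, day 14 ganglia and small tumors. Filled points passed an adjusted p of 0.05. At day 14 only Ccne1 (1.27) and E2f1 (1.76) are filled, while all 6 are filled in the tumors, from 1.61 for Ccne1 to 3.89 for Mcm10.

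When the groups were put in the order of their levels, the MCM genes had the tumors at the top and day 7 below them. For Mcm3, Mcm5 and Mcm10 day 14 came next and day 0 last, and for Mcm4 day 14 was lowest. The step between day 7 and the tumors was called for all 4 MCM genes, by 2.38 for Mcm3, 1.43 for Mcm4, 1.38 for Mcm5 and 1.55 for Mcm10, with the leave-out limit given above for Mcm10. The step between day 0 and day 14 was called for none of them, at 0.16 for Mcm3, -0.09 for Mcm4, 0.39 for Mcm5 and 0.70 for Mcm10. For E2f1 the order was day 0, day 7, day 14 and tumors, and only the last step was called. For Ccne1 the order was day 0, day 14, tumors and day 7, and only the step from day 0 was called.

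Other cell types moved with the comparison between tumors and ganglia. Against day 0, 37.3% of all probes were called in the tumors, and 18.4% were called higher. Of 8 measured skeletal muscle markers, 7 rose and 1 fell in the tumors against day 0, and their mean log2 level was 18.24 to 18.30 in the tumors and 13.29 to 14.60 in the ganglia. Of 9 adipocyte markers 8 rose and none fell, with a mean level of 17.58 to 17.82 in the tumors, 13.65 to 14.77 at day 0 and 15.38 to 16.09 at day 7 and day 14. Of 9 myeloid markers 7 rose, with a mean of 15.07 to 15.13 in the tumors and 13.26 to 13.71 at day 0. Lower in the tumors were 4 of 7 Schwann and satellite glia markers (mean 13.16 to 13.26, against 14.59 to 15.54 at day 0), 7 of 9 fibroblast markers (15.90 to 16.00 against 17.03 to 17.95) and 9 of 14 sympathetic neuroblast markers (16.93 to 16.97 against 17.67 to 18.53). No marker of these 6 lists was at the lower limit on every array of a group. Between day 7 and day 0, where 1.99% of all probes were called, far fewer of these markers were called. They were 1 myeloid marker, higher, and 1 sympathetic neuroblast marker, lower. The median adipocyte difference was 1.71 with 0 of 9 called. Between day 14 and day 0, 10.2% of all probes were called and 5.56% were called higher. In that comparison 3 of 7 glia and 3 of 9 adipocyte markers rose. Of 9 fibroblast markers 2 rose and 2 fell, and of 14 neuroblast markers 2 rose and 6 fell. The part of these markers in the results was not tested.

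The promoters of the MCM genes are shown because these genes moved together in the ganglia. RefSeq's table (build GRCm38.p6) held windows of 5 of the 6 members, each from 250 bases before the start given there to 50 after it. It held no window for Mcm4, whose promoter was not searched. They were searched on both strands for the E2F motif in the spellings TTTCCCGC and TTTGGCGC, for the E-box CACGTG, which MYC family factors bind, and for CCAAT, none of which overlap in these windows. Positions count from 1 at the start, with negative positions before it. Mcm5 holds TTTGGCGC on the opposite strand at -149 to -142 and CCAAT at -77 and -22, on the plus strand of chromosome 8. Mcm3 (chr1:20820313-20820562, minus strand) holds CCAAT on both strands, and Mcm10 (chr2:5012792-5013041, minus strand) holds it on the strand of the gene. The lines give the 250 bases before the start of Mcm3 and Mcm10, with the motifs in capitals. For Mcm5 the start lies 41 bases inside the annotated gene, and the line stops at the gene's outer end (209 bases, chr8:75109259-75109467), so that its CCAAT at -22 is not shown.
Mcm5: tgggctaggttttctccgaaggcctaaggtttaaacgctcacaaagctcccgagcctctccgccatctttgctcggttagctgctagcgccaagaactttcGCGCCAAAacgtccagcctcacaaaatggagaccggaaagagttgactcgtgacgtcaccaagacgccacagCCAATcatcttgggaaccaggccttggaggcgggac
Mcm3: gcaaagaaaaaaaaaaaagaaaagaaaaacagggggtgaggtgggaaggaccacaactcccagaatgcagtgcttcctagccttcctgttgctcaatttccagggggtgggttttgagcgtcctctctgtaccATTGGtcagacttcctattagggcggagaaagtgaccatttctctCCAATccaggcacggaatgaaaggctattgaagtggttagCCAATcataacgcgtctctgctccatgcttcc
Mcm10: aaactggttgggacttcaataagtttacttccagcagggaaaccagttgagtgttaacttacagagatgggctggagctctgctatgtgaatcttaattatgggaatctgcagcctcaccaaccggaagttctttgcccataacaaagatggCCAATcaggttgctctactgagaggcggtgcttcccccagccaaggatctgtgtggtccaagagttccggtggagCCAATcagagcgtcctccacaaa
Mcm3 also holds both E2F spellings close together just after its start, at positions 20 to 27 (opposite strand) and 39 to 46, in the 27 bases of chr1:20820267-20820293 on the minus strand.
Mcm3 site: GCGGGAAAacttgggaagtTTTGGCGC

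An E2F motif was thus found in 2 of the 5 windows, against 1.56% of 32851 RefSeq windows of the same length. CCAAT was found in 3 of the 5 windows, those of Mcm3, Mcm5 and Mcm10, against 37.4% of all windows. Each of these 3 windows holds it 3 times. Of all windows 11.7% hold it more than once, and the share with 3 matches was not counted. The E-box was found in 0 of the 5, against 7.15% of all windows. The windows of Ccne1 and E2f1 held none of the 3 motifs, and that of E2f1 lies wholly inside the annotated gene. A match is a description of the letters and not a binding site.

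The rest of the licensing pathway was read from lists of other genes. Of 9 measured origin licensing genes, 3 rose at day 7 and none fell, where 1.47% of all probes were called higher. The median log2 difference of the 9 was 0.59 against 0.01 over all probes. The 3 that rose are named next. They were Cdc6, the loader of the MCM ring (1.62, limma adjusted p = 0.0198), its partner Cdt1 (1.59, 0.0473), and Gmnn, geminin, the inhibitor of Cdt1 (0.99, 0.0244). The ring subunits outside the 6 members, Mcm6 (1.28, adjusted p = 0.142) and Mcm7 (0.46, adjusted p = 0.478), were not called. At day 14 none of the 9 was called (median 0.37), and Orc3 was at the lower limit on both arrays. In the tumors, where 18.4% of all probes were called higher than at day 0, 8 of 9 rose (median 1.31), among them Cdt1 (3.45), Cdc6 (3.40), Gmnn (2.78) and Mcm6 (3.06). The probes of Mcm6 and Mcm7 ranked much lower within the array beside the ganglia than in the size series for the 2 tumors of the same names, Mcm6 at 60.2 and 64.4 against 89.5 and 89.2, and Mcm7 at 38.7 and 45.1 against 83.1 and 87.3.

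Over all probes, 1.47% were called higher than day 0 at day 7 and 18.4% in the tumors. Of 16 genes of helicase activation and the fork, 2 rose at day 7, Cdc45, which joins the helicase when it starts (1.57, limma adjusted p = 0.0493), and Clspn, claspin of the replication checkpoint (1.87, adjusted p = 0.035). In the tumors 13 of 16 rose (median 1.62), including Rfc4 of the clamp loader (3.33), Cdc45 (3.12), Dbf4, the activator of the CDC7 kinase (2.72), and the ligase Lig1 (1.85). Of 5 nucleotide synthesis genes 3 rose at day 7, Dut (1.27), Rrm2, the ribonucleotide reductase subunit (2.00), and Umps (0.64), and all 5 rose in the tumors (median 2.40). Of 9 mitosis genes 4 rose at day 7, Cenpa (2.06), Cenpe (1.37), Cdc20 (1.36) and Plk1 (1.21), and all 9 rose in the tumors (median 3.02). At day 14 against day 0, 10.2% of all probes were called and 5.56% were called higher. Of 16 fork genes 1 rose, Timeless (0.72), and 1 fell, Mcmbp, a binding partner of MCM proteins, by 0.94. The share of fork genes called was thus near that of all probes. Of 5 nucleotide synthesis genes 1 rose, Dut (0.67). From day 7 to day 14, where 0.268% of all probes were called lower, Cdc20 fell by 1.40 (limma adjusted p = 0.0267). No other gene of these 4 lists was called.

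Partners of Ccne1 and E2f1 were read in the same way. Of 8 other G1/S cyclins and kinases none was called at day 7 (median 0.08). At day 14, 1 of the 8 was called, a share near the 10.2% of all probes called there. This was Ccnd1, cyclin D1, which fell by 0.99 (limma adjusted p = 0.0189). In the tumors 4 of 8 rose and 1 fell: Ccna2, cyclin A2 (3.33), the phosphatase Cdc25a (1.85), Fbxw7, the ubiquitin ligase subunit that targets cyclin E (1.51), and Ccnd1 (0.70) rose, and Ccnd2, cyclin D2, fell by 2.07. Of 9 other E2F and pocket protein genes none was called at day 7 or day 14. In the tumors 3 were called, a share near the 37.3% of all probes called there. All 3 were higher, where 18.4% of probes were called higher. They were Mybl2 (3.43), Tfdp1, the dimer partner of E2F proteins (1.39), and E2f6 (0.55). Among 6 CDK inhibitor genes none was called at day 7. At day 14, 1 of the 6 was called, where 10.2% of all probes were called. This was Cdkn1c, which encodes p57 and fell by 2.86 (limma adjusted p = 2.7e-04). In the tumors 3 of 6 fell and 1 rose, with Cdkn1c at -2.48, Cdkn1a at -1.43, Cdkn2d at -0.84 and Cdkn2a at 0.97.

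The second question was whether the 6 genes followed tumor size. Between tumors of different size no member was called in any comparison with the small class, and all of these groups overlapped. The counts were 0 of 6 for medium against small, where 0.961% of 32996 probes were called, 0 of 6 for large against small (2.31%), 0 of 6 for very large against small (4.69%) and 0 of 6 for any difference among the 4 classes (2.25%). At an unadjusted p under 0.05 in the same limma fit, Mcm3, Mcm4, Mcm5 and Mcm10 passed for large against small, Mcm10 passed for very large against small and for the 4 classes, and no member passed for medium against small. Of all probes 14.5% passed that threshold for large, 17.9% for very large and 10.8% for medium against small, and 13.3% for the 4 classes. Along tumor weight, Mcm10 alone was called, where 5.59% of probes were called and 2.62% were called higher with weight.

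**Figure D3:**
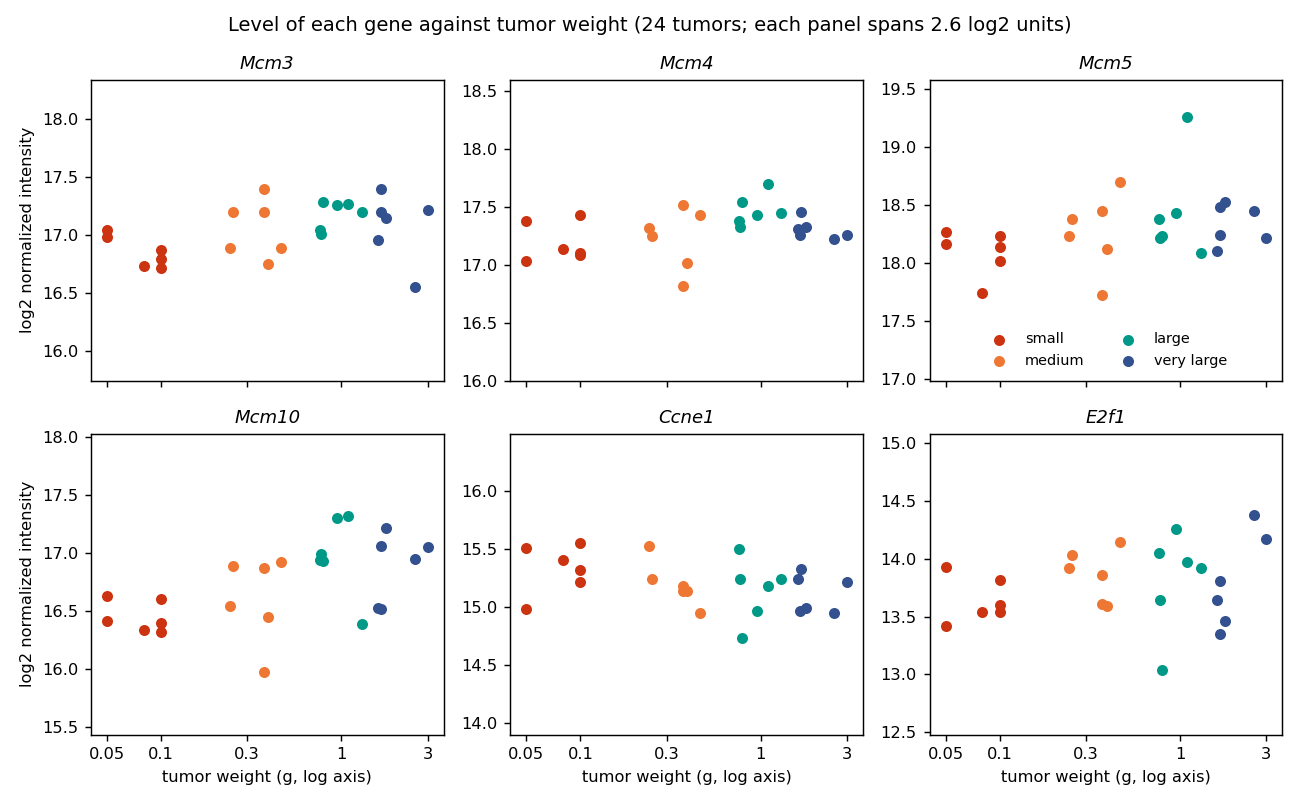
Log2 normalized intensity of the 6 genes in the 24 tumors against tumor weight in grams on a log axis, with a color for each size class. The levels stay within a narrow band across weights, with Mcm5 of large replicate 6 (19.26) above the rest and Mcm10 lowest in medium replicate 4 (15.97).

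Mcm10 was at 16.32 to 16.63 (median 16.40) in small tumors, 15.97 to 16.92 (median 16.70) in medium, 16.39 to 17.32 (median 16.96) in large and 16.52 to 17.22 (median 17.00) in very large tumors. Most of the larger tumors lay above the small ones, with medium replicate 4 below them all. The trend was 0.35 on the log2 scale for each 10-fold of weight (SE 0.11, limma adjusted p = 0.0488). It lay close to the threshold: the adjusted p was 0.0241 to 0.102 on leaving out single tumors, and Mcm10 was called in 6 of those 24 fits. With each array centred on its median in place of quantile normalization the trend was 0.21 (adjusted p = 0.291), and with no normalization it was 0.02 (0.969). With life span in the fit it was 0.22 (adjusted p = 0.491), and with muscle and adipocyte marker levels in the fit it was 0.31 (0.596), a fit in which 0 of 32996 probes were called.

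The same 6 small tumors ranged widely in skeletal muscle markers, whose mean log2 level was 11.22 to 18.36 there, 9.90 to 15.74 in medium, 9.78 to 15.36 in large and 9.72 to 15.90 in very large tumors. Adipocyte markers had means of 13.77 to 17.24 in small and 11.67 to 14.52 in the other classes. Against small tumors, 4.69% of all probes were called in very large tumors. There, 6 of 8 muscle markers and 5 of 9 adipocyte markers were lower and none was higher. The covariate fit above gives the Mcm10 trend with both lists in it. Along weight, 5.59% of all probes were called and 2.62% were called higher. With weight, 3 of 3 erythroid markers rose (median 1.91 for each 10-fold of weight) and 4 of 7 Schwann and satellite glia markers fell (median -1.24). Of 9 fibroblast markers 5 fell and 1 rose, and of 14 sympathetic neuroblast markers 4 fell and 2 rose. The part of these 4 lists in the Mcm10 trend was not tested. The difference of large from small tumors for Mcm10 was 0.53 (SE 0.16, limma adjusted p = 0.0795). On leaving out single tumors the adjusted p ran from 0.023 to 0.177. It was called in 2 of those 24 fits, without medium replicate 4 (0.0462) or large replicate 3 (0.023). Under 8 other settings the limma adjusted p was 0.0641 to 0.985, with no call.

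The other members varied little with size. Mcm5 had a mean of 18.09 ± 0.19 in small, 18.27 ± 0.33 in medium, 18.44 ± 0.42 in large and 18.34 ± 0.17 in very large tumors (SD, n = 6 each). Mcm3 was at 16.86 ± 0.13, 17.05 ± 0.25, 17.18 ± 0.12 and 17.08 ± 0.30 in the same order of classes. Mcm4 was at 17.20 ± 0.17, 17.22 ± 0.26, 17.47 ± 0.13 and 17.31 ± 0.08. For each of the 4 MCM genes the mean of the large class was the highest, and no neighbours in the order of levels differed beyond their spread.

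Ccne1 was at 15.33 ± 0.21 in small, 15.20 ± 0.19 in medium, 15.14 ± 0.27 in large and 15.12 ± 0.17 in very large tumors (SD, n = 6 each), and the difference of very large from small was -0.22 (95% interval -0.47 to 0.04, limma adjusted p = 0.392). E2f1 was at 13.64 ± 0.19, 13.86 ± 0.22, 13.81 ± 0.43 and 13.80 ± 0.40 in the same order, and very large tumors differed from small by 0.16 (95% interval -0.21 to 0.53, limma adjusted p = 0.722). The intervals for the MCM genes between very large and small tumors reached at most 0.77, for Mcm10. Most genes of the pathway lists were not called, but some were. In large against small tumors, where 2.31% of probes were called, Orc5 (0.40), Cdc25a (0.42), Lin54 (0.43) and Umps (0.50) rose. Cdkn1c fell there by 0.73. Each was the only gene of its list called, and no fork or mitosis gene was called. Against small tumors, where 4.69% of probes were called, very large tumors had 2 of 9 origin licensing genes higher, Orc2 (0.45) and Orc5 (0.43). Of 16 fork genes 1 was higher, Lig1 (0.89). Of the G1/S list Cdc25a rose (0.40) and Fbxw7 fell by 0.46, Cdkn1c of the CDK inhibitors fell by 0.71, and Cenpe of the mitosis list rose (0.53). Along weight 5.59% of probes were called. There, 2 of 9 origin licensing genes, 2 of 16 fork genes, 1 of 5 nucleotide synthesis genes and 1 of 9 mitosis genes rose. Of 8 G1/S genes 1 rose and 1 fell, 2 of 6 CDK inhibitor genes fell, and no E2F or pocket protein gene was called.

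Ranks within each array allow the ganglia and all tumors to be set side by side, as a description. A rank is the percentile of the probe among the 12688 probes of the authors' table in the unnormalized values of that array. Mcm5 ranked at 70.5 to 80.0 at day 0, 88.7 to 91.2 at day 7, 78.7 at day 14 and 94.8 to 98.1 over the 24 tumors. Mcm10 ranked at 35.6 to 56.7 at day 0, 73.6 to 79.6 at day 7, 58.8 to 59.1 at day 14 and 84.2 to 93.3 over the 24 tumors. Both genes thus ranked above every ganglion in every tumor of each size. The share of all probes that did so was not counted, and ganglia and size series were hybridised in different sets. Mcm3 ranked at 61.2 to 80.1 over the 9 ganglia and at 89.1 to 93.6 over the 24 tumors, and Mcm4 at 83.2 to 90.2 and at 90.7 to 94.8.

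Ccne1 ranked at 58.8 to 68.1 at day 0, 75.4 to 80.0 at day 7 and day 14, and 70.2 to 80.1 over the 24 tumors, so the tumors shared the range of the later ganglia. E2f1 ranked at 23.4 to 40.7 at day 0, 42.4 to 53.2 at day 7, 54.0 to 55.1 at day 14 and 46.0 to 65.3 over the 24 tumors. The 2 tumors that share specimen names across the sets put a limit on such reading. For them E2f1 ranked at 52.8 and 52.9 in the size series and at 69.3 and 68.0 beside the ganglia, and Mcm4 at 92.4 and 92.2 against 96.4 and 95.6. Mcm3 moved from 90.2 and 90.1 to 93.7 and 94.2, Mcm5 from 94.9 and 95.7 to 96.0 and 95.7, Mcm10 from 87.5 and 87.3 to 89.0 and 88.7, and Ccne1 from 78.6 and 77.5 to 78.3 and 80.1. The gap for E2f1 is thus larger than that for the other 5, and the ranks of E2f1 in ganglia and in the size series were therefore not compared. For Mcm4 the gap is larger than the distance from its highest ganglion (90.2) to its lowest tumor of the size series (90.7).

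**Figure D4:**
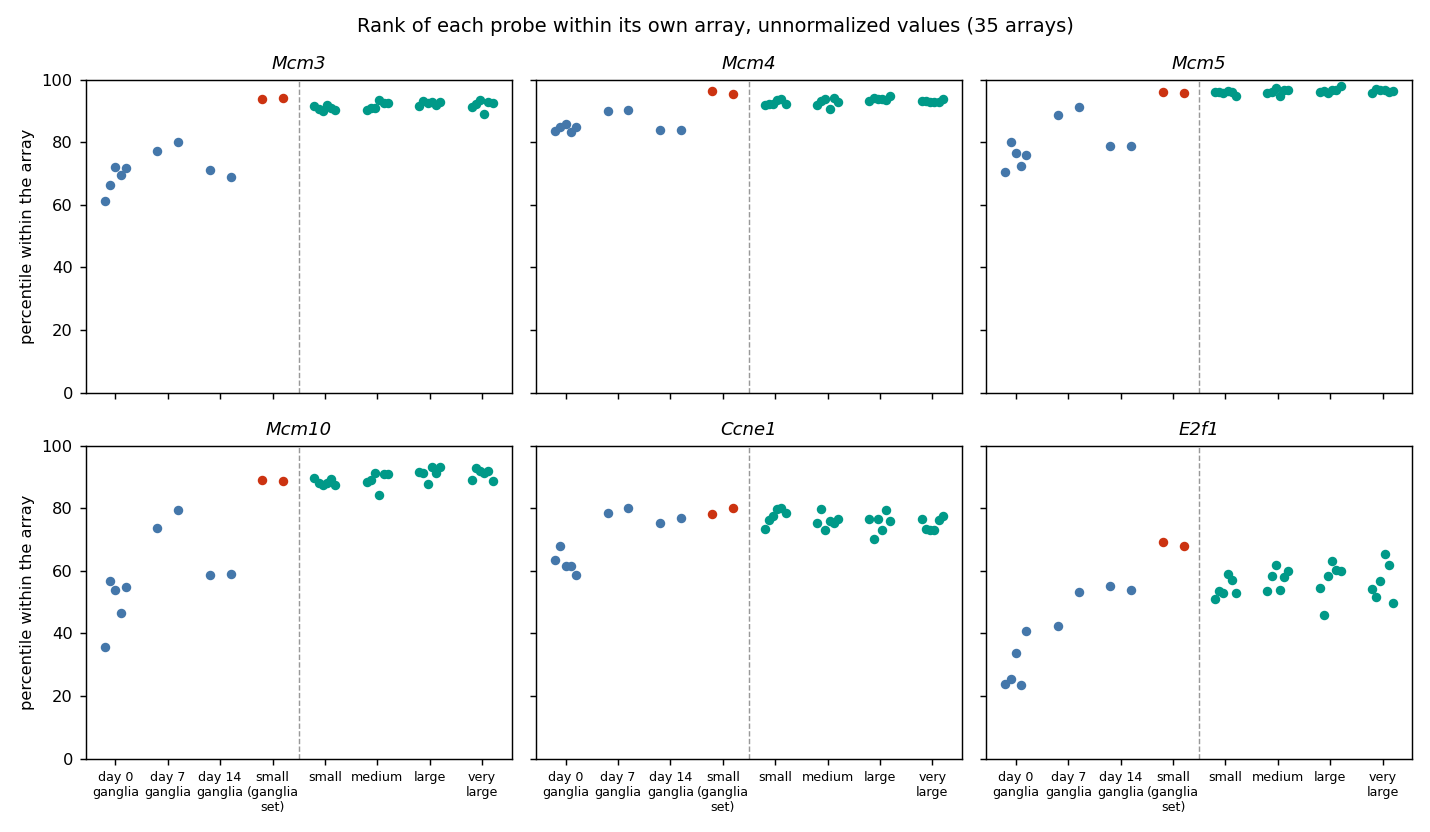
Percentile of each gene's probe within its own array, from unnormalized values, for the ganglia (blue), the 2 small tumors hybridised beside them (red) and the 24 tumors of the size series (green). The dashed line parts the sets. Mcm3, Mcm5 and Mcm10 rank above the ganglia in tumors of every size, and Mcm4 does so by less than its shift between the sets. The share of all probes that rank so was not counted. E2f1 ranks higher in the red tumors (68.0 and 69.3) than in the 2 tumors of the same names in the green small class (52.8 and 52.9).

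Over the 11 arrays of the ganglion set the 4 MCM genes correlated with each other at a Pearson r of 0.94 to 0.99, and over the 9 ganglia alone at 0.85 to 0.98, highest for Mcm5 with Mcm10. Pairs with Ccne1 or E2f1 ran from 0.63 to 0.86 over the 11 arrays and from 0.35 to 0.81 over the ganglia. The arrays of a stage share their condition, so these values describe the course above. Over the 24 tumors the MCM pairs ran from 0.22 to 0.79, again highest for Mcm5 with Mcm10 and lowest for Mcm3 with Mcm5, and Ccne1 correlated with Mcm10 at -0.45. The genes most like Mcm5 among the 7803 other named genes were Mcm10 (0.992), Cdc25c (0.990) and Naa10 (0.990) in the ganglion set and Rpa2 (0.905), Nelfa (0.899) and Ppa1 (0.892) in the tumors. For Mcm10 they were Cdc25c (0.994), Mcm5 (0.992) and Cdt1 (0.983) in the ganglion set and Msh6 (0.864), Cenpe (0.841) and Snx1 (0.841) in the tumors.

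Mcm3 was most like Slc38a4 (0.991), Exo1 (0.989) and Fbxo5 (0.988) in the ganglion set and Poc1b (0.810), Rif1 (0.797) and Ankle2 (0.787) in the tumors. Mcm4 was most like Dsn1 (0.989), Cenph (0.988) and Racgap1 (0.988) in the ganglion set and Cct2 (0.845), Hdac2 (0.825) and Alyref (0.812) in the tumors. Ccne1 was most like Psmb4 (0.961), Spout1 (0.958) and Wdr4 (0.956) in the ganglion set and Rgmb (0.809), Pef1 (0.787) and Arl8a (0.782) in the tumors. E2f1 was most like Prps1 (0.986), Adcy8 (0.973) and Lgr5 (0.964) in the ganglion set and Dnajb2 (0.810), Jmjd6 (0.774) and Rexo4 (0.763) in the tumors. Of the 6 members, Mcm5 and Mcm10 alone were in each other's list, and only in the ganglion set.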

How the data were processed

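The labels describe total RNA from frozen sections, labelled with digoxigenin and hybridised to 1-colour arrays. Both tables hold intensities: the authors deposited a table of 12688 probes for the 11 ganglion-set arrays, quantile normalized so that each rank carries the highest raw value at that rank, and an unnormalized series table of 33012 probes. No genome build or annotation source is stated in the labels or headers. Of the authors' probes 8354 carry a single symbol, of which 3086 were updated through RefSeq. For the 24 tumors, 32996 probes without missing values were quantile normalized here with limma 3.58.1 in R 4.3.3. Values under each set's percentile 1 were raised to it, log2 was taken, and probes were fitted with lmFit and eBayes with an intensity trend, checked on simulated data. Replicates carry no shared numbers. The 6 members and the pathway and marker lists were chosen with earlier results of these data known, so that counts over them are no independent support. All members are named; of other lists, up to 4 called genes with the smallest p per list and comparison are named, with the measured ring subunits and some other members of the list added after their values were seen. Genes of like pattern are the 3 with the highest r.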

Additional observations from a re-analysis of the deposited data

Results flagged for a closer look

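In the large tumors, Mcm5 of replicate 6 had a log2 level of 19.26, and the other 5 tumors of the class lay between 18.09 and 18.43. The gap to the next tumor took 0.712 of the whole range of the class, which is above Dixon's 95% limit for 6 samples. Of 30 groups of members tested in this way, 1 stood out, and chance gives about 1 in 20. Without this tumor the difference of large from small tumors for Mcm5 was 0.18, against 0.34 with it, and neither was called.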

How the results depend on the processing

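Every call of a member between small tumors and day 0 ganglia (6) and for any difference among the 4 ganglion-set groups (6) was made under all alternatives run. On leaving out single arrays the number of members called ran from 0 to 5 for day 7 against day 0, from 0 to 2 for day 14 against day 0, from 0 to 3 for day 14 against day 7, from 3 to 5 for tumors against day 7, from 4 to 5 for tumors against day 14, from 0 to 1 for large against small tumors, for the weight trend and for any difference among size classes, and stayed at 0 for medium and very large against small. The number of probes called over the whole set moved too. Along weight it was 801 without small replicate 4 and 2036 without large replicate 6, against 1843 with all tumors. No member was called in those 2 fits. In the ganglion set, a fit without a day 7, day 14 or tumor array leaves 1 array in that group. Its count of calls says little about the members. For day 7 against day 0 the count was 1 on the unnormalized series table, where 37 probes were called against 252 in the main fit. For day 14 against day 7 it was 0 on the series table centred on medians or unnormalized, where 31 and 3 probes were called. It was also 0 with all probes quantile normalized (34 probes called) or without the intensity trend (24), against 59 probes in the main fit. It was 4 with array weights or with day 0 replicates 3 to 5 alone, where 8.72% and 7.33% of probes were called. For the weight trend it was 0 with median centring (1318 probes called), no normalization (828), no intensity trend (1242) or life span (247). It was also 0 with muscle and adipocyte levels (0 probes called) or array weights (2244), against 1843 probes in the main fit.

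Without normalization the median of all probes itself moved, by 0.18 to 0.92 in the ganglion set and by -0.04 to -0.26 against small tumors. Under that setting Mcm4 at day 14 against day 0 turned to 0.71 and Ccne1 at day 14 against day 7 to 0.27. In the size series it turned Mcm4 in medium against small (-0.02), E2f1 in large against small (-0.01), Mcm3 (-0.24), Mcm4 (-0.36), Mcm5 (-0.20), Mcm10 (-0.02) and E2f1 (-0.35) in very large against small, and the weight trends of Mcm3 (-0.16), Mcm4 (-0.21), Mcm5 (-0.13) and E2f1 (-0.20). Median centring turned Mcm4 (-0.09) and E2f1 (-0.08) in very large against small and their weight trends (-0.02 and -0.01). The muscle and adipocyte covariates turned Mcm5 (-0.04) and E2f1 (-0.18) in medium, E2f1 in large (-0.28) and very large (-0.22), and the weight trend of E2f1 (-0.09). Mcm3 at day 14 against day 0 was -0.13 with array weights and -0.10 with day 0 replicates 3 to 5. Mcm4 in medium against small ran from -0.03 to 0.11 on leaving out single tumors. None of these turned values was called, and the cause was not tested. No paired analysis was possible because the groups compared share no replicate numbers in the labels.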
